A study of Mus musculus with 6 samples.

Results

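The 7 genes described here encode the E proteins and the repressive partners that compete for them in muscle cells. The E proteins are Tcf3, Tcf4 and Tcf12, and the repressive partners are Msc, Tcf21, Twist1 and Twist2. They were taken by gene symbol from an array of 20163 genes, 1 probe set per gene. Each of the 7 had exactly 1 probe set, so none was set aside. The study placed adult muscle stem cells of female C57BL/6J mice aged 6 to 8 weeks in culture on Matrigel for 2 days, and then for 6 h in medium without serum. That medium held 200 ng/ml of the soluble BMP receptor BMPR-IA/ALK3-Fc, to limit BMPs carried over from serum. The tested cultures received 100 ng/ml BMP6 for 1 h, and the controls received the solvent alone for the same time. There were 3 BMP6 and 3 vehicle arrays. All groups shared the 2 days of expansion and the receptor pre-treatment, which limits them as a model of resting stem cells.

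E proteins are broadly expressed basic helix-loop-helix (bHLH) transcription factors. MyoD and the other myogenic bHLH factors bind DNA well only as dimers with an E protein, at the E-box, whose letters are CANNTG. Id proteins have the helix-loop-helix but no basic region, so an E protein held by an Id protein does not bind DNA. Msc, also called MyoR, Tcf21, also called capsulin, and the Twist proteins do bind DNA, and as partners of E proteins they oppose activation by MyoD. BMPs are known inducers of Id genes, and the comparison asks whether the transcripts on the other side of that balance moved within the same hour.

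Promoters of some of the genes are shown as examples, as the 250 bases before the annotated start. They are those of the E proteins Tcf3 and Tcf12 and the repressor Twist1, which were not called, and of Id3, an inhibitor that rose. Capitals mark each E-box, CANNTG, which reads the same on both strands. The sequences are from RefSeq, build GRCm38.p6, each 5′ to 3′ on the gene's own strand. They lie at chr10:80433636-80433885 (minus strand), chr9:72111820-72112069 (minus strand), chr12:33957421-33957670 (plus strand) and chr4:136143572-136143821 (plus strand).
Tcf3: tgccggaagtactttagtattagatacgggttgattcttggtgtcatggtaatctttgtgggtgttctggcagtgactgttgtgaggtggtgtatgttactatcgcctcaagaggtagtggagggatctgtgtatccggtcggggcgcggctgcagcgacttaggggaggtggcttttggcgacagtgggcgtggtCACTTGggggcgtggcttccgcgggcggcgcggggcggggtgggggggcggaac
Tcf12: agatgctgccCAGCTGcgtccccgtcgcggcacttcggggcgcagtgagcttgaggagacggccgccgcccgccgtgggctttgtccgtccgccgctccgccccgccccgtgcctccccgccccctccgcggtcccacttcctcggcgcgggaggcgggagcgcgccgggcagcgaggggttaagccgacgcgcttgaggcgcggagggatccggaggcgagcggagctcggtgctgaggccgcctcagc
Twist1: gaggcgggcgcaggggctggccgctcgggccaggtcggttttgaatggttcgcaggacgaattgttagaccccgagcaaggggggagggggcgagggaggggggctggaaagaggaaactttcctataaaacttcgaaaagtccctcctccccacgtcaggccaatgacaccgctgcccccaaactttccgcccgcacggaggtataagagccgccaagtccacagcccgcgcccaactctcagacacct
Id3: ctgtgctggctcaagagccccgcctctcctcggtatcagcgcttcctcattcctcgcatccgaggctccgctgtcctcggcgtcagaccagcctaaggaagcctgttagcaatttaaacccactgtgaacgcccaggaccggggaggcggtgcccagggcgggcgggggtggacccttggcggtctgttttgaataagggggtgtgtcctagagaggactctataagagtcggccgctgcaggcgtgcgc
Windows were searched for 5 of the 7 members. Msc and Tcf4 are named only, so the member counts leave them out and do not describe their promoters. Tcf12 had 3 annotated starts, which gave 7 windows for 5 genes. The probe set could not separate the products of those starts, nor E12 from E47, the splice forms of Tcf3. The Tcf3 window held 1 E-box, CACTTG, beginning 54 bases before the start. The Tcf12 window shown held 1, CAGCTG, beginning 240 bases before it. In all, 3 of the 7 member windows held an E-box, against 66.2% of 32851 windows of the same length. The GC-rich letters GGCGCC, known from BMP-responsive elements, were in 0 of the 7 member windows and in 9.6% of all windows. They occurred 0 times in the Id3 window as well, and 1 time each in the windows of Id2 and Id4, related inhibitors that were not called. GTCT, the core letters that SMAD4 binds, searched on both strands, occurred 2 times in the Id3 window. It occurred 2 times for Twist1, 1 time for Tcf12 and 0 times for Tcf3, and 82.9% of all windows held it. These matches describe letters in a short window and say nothing of binding.

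All 3 E proteins gave bright signals, and the 4 repressive partners gave dim ones. On the log2 scale of the deposited values, the means over 6 arrays were 9.10 for Tcf3, 9.23 for Tcf4 and 10.33 for Tcf12. For Msc, Tcf21, Twist1 and Twist2 they were 5.85, 5.29, 6.06 and 5.86, below the median of 6.41 over all genes. Probe sets differ in their response, so these values are brightness on the array and are not compared as transcript amounts. As a background of genes used mainly in sensory organs, 200 vomeronasal, taste and olfactory receptors had a median of 3.34 and a highest value of 5.97. Of these receptors, 97% were dimmer than Tcf21 and 99% were dimmer than Msc and than Twist2. Twist1 lay above all 200. Tcf21, Msc and Twist2 were thus within the range of that background, at its upper end, and a change in a dim probe set is compressed by RMA.

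**Figure D1:**
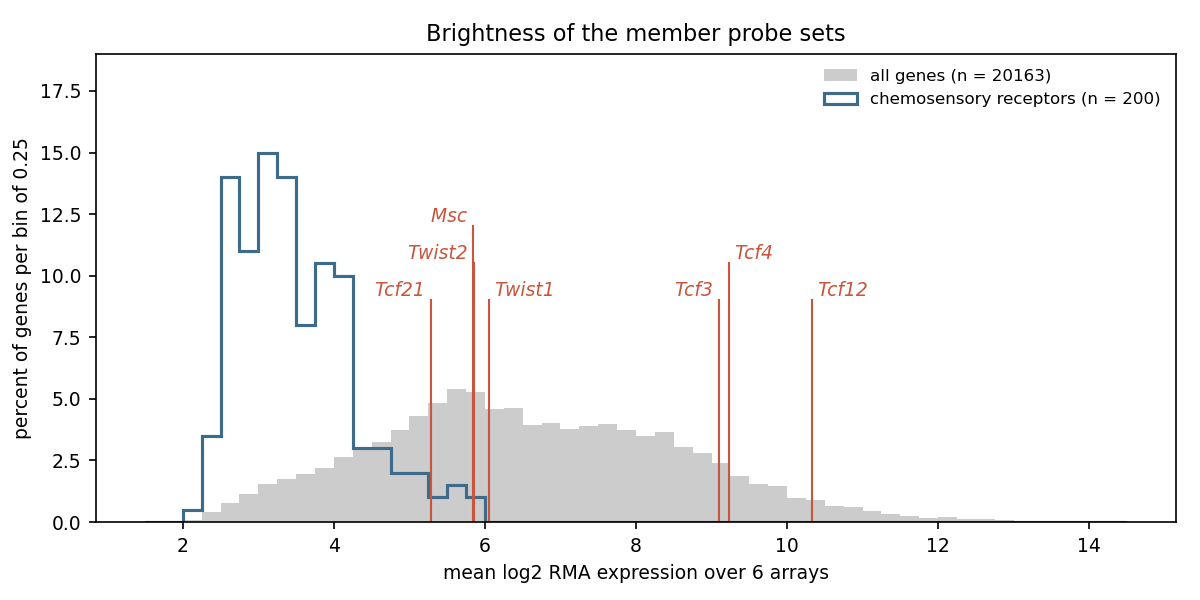
Distribution of the mean log2 expression over 6 arrays for all 20163 genes (grey, percent of genes per bin) and for 200 chemosensory receptors (blue outline), with the 7 members as red lines. Tcf3, Tcf4 and Tcf12 lie between 9.10 and 10.33, and the repressive partners lie between 5.29 and 6.06, left of the median of all genes.

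None of the 7 genes passed in limma after 1 h of BMP6, where 0.0843% of all genes did (17 of 20163, each of them higher). None of the 7 had an unadjusted limma p under 0.05 either, where 3.17% of all genes did. The adjusted p was 1 for each of the 7. With replicate number as a block 0 of the 7 passed, where 0.144% of all genes did. Their log2 fold changes lay between -0.10 and 0.05 with a median of -0.026, and the median of all genes was -0.0013. The 95% intervals of the 7 without a block together spanned 0.770-fold to 1.22-fold, and both ends were those of Tcf21. The intervals bound what the arrays allow in that fit, and a p that misses the threshold does not show that the levels were equal.

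Tcf3, or E2A, is the E protein first found as a binder of immunoglobulin enhancers. Its values were 9.12, 9.16 and 9.10 in BMP6 replicates 1, 2 and 3, against 9.05, 9.09 and 9.09 in the vehicle replicates. The BMP6 samples were all above the vehicle samples, by as little as 0.0087 between the nearest of them. Groups were separate in this way for 7.71% of the genes on the array, and for 3.84% with BMP6 above. The means were 9.13 ± 0.028 in BMP6 and 9.08 ± 0.025 in vehicle (SD, n = 3 each). The ratio was 1.04-fold (95% interval 0.930 to 1.15; log2 fold change 0.05, SE 0.07). Within replicate numbers 1, 2 and 3 the difference was 0.07, 0.07 and 0.0087.

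Tcf4, or E2-2, is an E protein known for its part in plasmacytoid dendritic cells and in the nervous system. Its values were 9.20, 9.26 and 9.21 in BMP6 and 9.21, 9.22 and 9.30 in vehicle, so the groups overlapped. The ratio was 0.985-fold (0.881 to 1.10; log2 fold change -0.022, SE 0.07), with 1 pair higher in BMP6 and 2 pairs lower. Older literature also uses the names TCF4 and TCF3 for the Wnt effectors Tcf7l2 and Tcf7l1, and RefSeq lists both as synonyms. The Entrez identifiers of the probe sets used here, 21413 and 21423, are those of the E proteins. For Tcf7l2 itself the log2 fold change was -0.08 (SE 0.09) and for Tcf7l1 -0.018 (SE 0.08, a gene picked after its values were seen). The related Lef1 and Tcf7 were measured at 0.13 (SE 0.13) and -0.04 (SE 0.11), and none of these 4 genes passed in limma.

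Tcf12, or HEB, is an E protein known from developing T cells and from muscle differentiation. It was measured at 10.22, 10.35 and 10.43 in BMP6, against 10.19, 10.24 and 10.54 in vehicle. The groups overlapped over almost their whole range, and both the lowest and the highest sample were vehicle. The ratio was 1.01-fold (0.858 to 1.18; log2 fold change 0.011, SE 0.10). With replicate number as a block the estimate was the same by construction and its 95% interval narrowed to -0.16 to 0.18 on the log2 scale.

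Msc, or MyoR, was found as a repressor of MyoD in undifferentiated myoblasts. It stood at 5.77, 5.84 and 5.90 in BMP6 and at 5.92, 5.76 and 5.91 in vehicle. The groups overlapped, and the ratio was 0.982-fold (0.868 to 1.11; log2 fold change -0.026, SE 0.08). Tcf21 is the closest relative of Msc, and in mice the pair is needed together for facial muscles to form. It stood at 5.42, 5.32 and 5.06 in BMP6 and at 5.51, 5.46 and 4.96 in vehicle, with a ratio of 0.971-fold (0.770 to 1.22). Its interval was the widest of the 7, and the lowest sample of each group was replicate 3.

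Twist1, a mesodermal factor that holds E proteins away from MyoD, stood at 6.01, 6.18 and 5.88 in BMP6, against 6.14, 6.06 and 6.05 in vehicle. The vehicle values lay inside the range of the BMP6 values, and the ratio was 0.959-fold (0.834 to 1.10; log2 fold change -0.06, SE 0.09). Twist2, also called Dermo1 for its place in dermis, stood at 5.90, 5.74 and 5.78 in BMP6, against 5.93, 5.92 and 5.87 in vehicle. It was the member with the lowest p, at an unadjusted limma p of 0.214, and was lower in BMP6 in 3 of 3 pairs, by 0.027, 0.18 and 0.09. The groups overlapped, since BMP6 replicate 1 lay above vehicle replicate 3. The ratio was 0.933-fold (0.830 to 1.05; log2 fold change -0.10, SE 0.08).

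**Figure D2:**
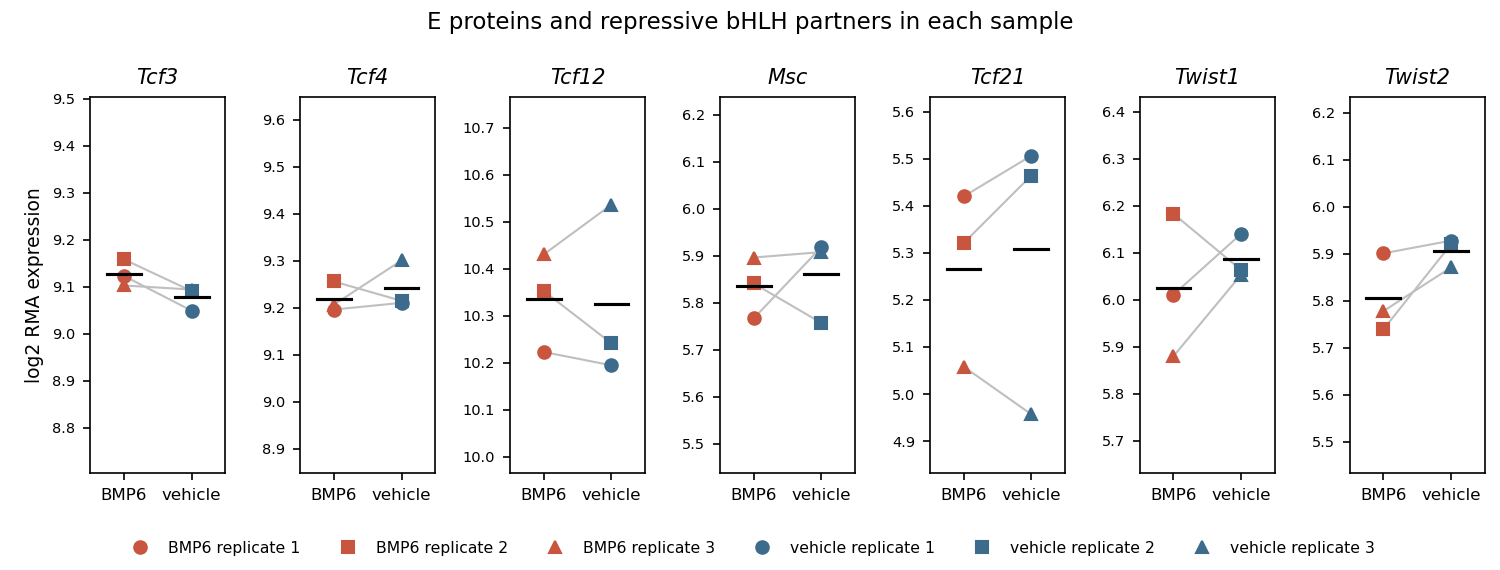
Log2 RMA expression of the 7 genes in each sample, BMP6 left and vehicle right, with marker shapes for replicate numbers, black bars for group means (n = 3 each) and grey lines joining samples of one replicate number. Each panel spans 0.8 log2 units around its own centre, and only the Tcf3 groups do not overlap.

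On the other side of the balance, 2 of the 4 Id inhibitors rose in limma, Id1 and Id3, where 0.0843% of all genes were called higher. All 4 had BMP6 samples above every vehicle sample, as 3.84% of all genes did. Id1 stood at 11.29, 11.27 and 11.35 in BMP6 and at 9.64, 9.61 and 9.92 in vehicle (limma adjusted p = 0.000116). Id3 stood at 10.29, 10.41 and 10.46 in BMP6, against 8.65, 8.72 and 9.22 in vehicle (limma adjusted p = 0.00234). The lowest BMP6 sample was above the highest vehicle sample by more than 1 unit for both genes. Id2 was measured at 11.13, 11.28 and 11.26 in BMP6 and at 10.61, 10.69 and 10.97 in vehicle, and did not pass (limma adjusted p = 0.567). Its log2 fold change was 0.47 (SE 0.10, limma unadjusted p = 0.00114). Id4 was measured at 6.77, 6.79 and 6.73 in BMP6 and at 6.41, 6.28 and 6.43 in vehicle, and did not pass (limma adjusted p = 0.277). Its log2 fold change was 0.39 (SE 0.08, limma unadjusted p = 0.000453). Before adjustment all 4 Id genes had a limma p under 0.05, as 3.17% of all genes did.

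The change in Id1 was set against each member within the same array. The log2 difference of Id1 minus Tcf3 was 2.17, 2.11 and 2.24 in the BMP6 samples, against 0.59, 0.52 and 0.83 in the vehicle samples. For Id1 minus Tcf12 it was 1.07, 0.92 and 0.92 in BMP6, against -0.56, -0.64 and -0.62 in vehicle. Over the 7 members the difference was larger in BMP6 than in vehicle by 1.53 (Tcf3) to 1.68 (Twist2). The groups did not overlap for any of the 7. Each exact two-sided permutation test gave p = 0.1, and 0.1 after Benjamini-Hochberg adjustment over the 7, which is the smallest p that 3 against 3 samples allow. The test could thus not pass 0.05. The 7 differences share the Id1 values, so the rise of Id1 enters each of them, and they are given as a description.

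The myogenic partners of the E proteins were also without a call. Of the 4 myogenic bHLH genes 0 passed in limma, with or without replicate number as a block. Without the block 1 of the 4, Myf6, had an unadjusted limma p under 0.05, as 3.17% of all genes did. Myod1 stood at 12.30, 12.30 and 12.25 in BMP6, against 12.14, 12.05 and 12.18 in vehicle (log2 fold change 0.16, SE 0.07, limma adjusted p = 1). Its groups did not overlap, with BMP6 above. Myf6, the late myogenic factor Mrf4, stood at 6.07, 5.98 and 6.05 in BMP6 and at 6.21, 6.24 and 6.33 in vehicle (log2 fold change -0.22, SE 0.07, limma adjusted p = 1). The Myf6 groups did not overlap either, with BMP6 below. Groups were separate in either direction for 7.71% of all genes. Myf5, an early myogenic factor, had overlapping groups and a log2 fold change of -0.34 (SE 0.19). It was lower in BMP6 in 3 of 3 pairs, by 0.31, 0.32 and 0.39. With replicate number as a block its SE was 0.07 (95% interval -0.50 to -0.18), and it had a limma unadjusted p of 0.000781 and a limma adjusted p of 0.297. Myog, the differentiation factor myogenin, had overlapping groups and a log2 fold change of 0.04 (SE 0.48), and its pairs differed by -0.10, 0.39 and -0.18.

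**Figure D3:**
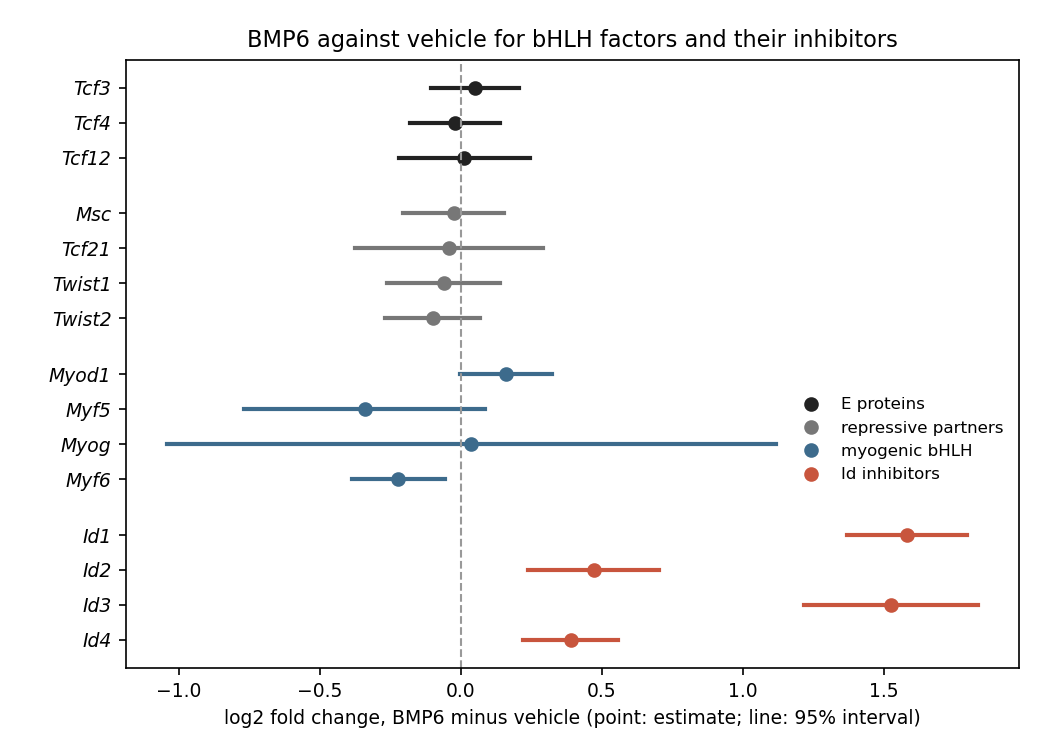
Log2 fold changes, BMP6 minus vehicle, with 95% moderated intervals from limma (n = 3 each) for E proteins, repressive partners, myogenic bHLH factors and Id inhibitors. The 7 members lie between -0.10 and 0.05, and all intervals of the members cross 0. Id1 and Id3 lie at 1.58 and 1.52, and Id2 and Id4 lie at 0.47 and 0.39.

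For 5 of the 7 genes more of the spread went with replicate number than with treatment, the exceptions being Tcf3 and Twist2. Samples with the same number share a mouse in the labels for numbers 1 and 2. Number 3 is mouse 3 in its BMP6 label and mouse 2 in its vehicle label, although the column headers give both samples 1 code. Replicate number took 86.6% of the sum of squares over 6 arrays for Tcf12 and 92.6% for Tcf21, and treatment took 0.210% and 1.07%. The medians over all genes were 50.6% for replicate number and 9.90% for treatment. With 6 arrays, replicate number has 2 degrees of freedom and treatment has 1.

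The mean of each pair for Tcf12 was 10.21, 10.30 and 10.48 for numbers 1, 2 and 3, a range of 0.27. For Tcf21 it was 5.46, 5.39 and 5.01, a range of 0.46, wider than that of 98.2% of genes. Tcf12 was highest and Tcf21 lowest in number 3, in both treatments, and across the 6 arrays they correlated at -0.977, a description of samples that share mice. Tcf3 and Tcf4 had pair means within 0.038 and 0.05 of each other, narrower than the median range of 0.15 over all genes. For Tcf3 treatment took 56.9% of a small spread, since its 6 samples lay within 0.11. For Msc, Twist1 and Twist2, replicate number took 41.3%, 45.6% and 32.5%, each below the median of 50.6% over all genes.

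Genes of muscle differentiation were set beside these pair means. Of 18 muscle genes with E-box enhancers, 0 passed for BMP6 in limma, where 0.0843% of all genes did. Before adjustment 0 reached 0.05, where 3.17% of all genes did. With replicate number as a block 0 of the 18 passed, where 0.144% of all genes did. The median log2 fold change of the 18 was 0.04. In 13 of the 18 (72.2%) the pair mean was lowest in number 3, as in 40.6% of all genes. In the other 5, Ckm, Chrna1, Chrnb1, Chrnd and Cdh15, all picked out after their values were seen, it was lowest in number 1. In 7 of the 18 (38.9%) the pair means spanned more than 1 unit, as in 0.114% of all genes, and in 11 they did not. Myh3, the embryonic myosin heavy chain, chosen after its values were seen, had 8.88, 7.89 and 5.84 for numbers 1, 2 and 3 with BMP6, against 8.65, 7.89 and 5.86 with vehicle. The SE of its log2 fold change was 0.79 without the block and 0.08 with it. The fit without the block was thus imprecise for such a gene. Myog stood at 8.65, 8.33 and 6.85 in BMP6, against 8.75, 7.94 and 7.03 in vehicle. Tcf21 was lowest and Tcf12 highest in number 3, where Myh3 and Myog were lowest, and the part of differentiation state in their values was not tested. The genes of this list with the lowest p were the cell cycle inhibitor Cdkn1a at -0.14 (SE 0.10), the transcription factor Mef2c at 0.12 (SE 0.10) and the filament protein Des at -0.13 (SE 0.12).

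**Figure D4:**
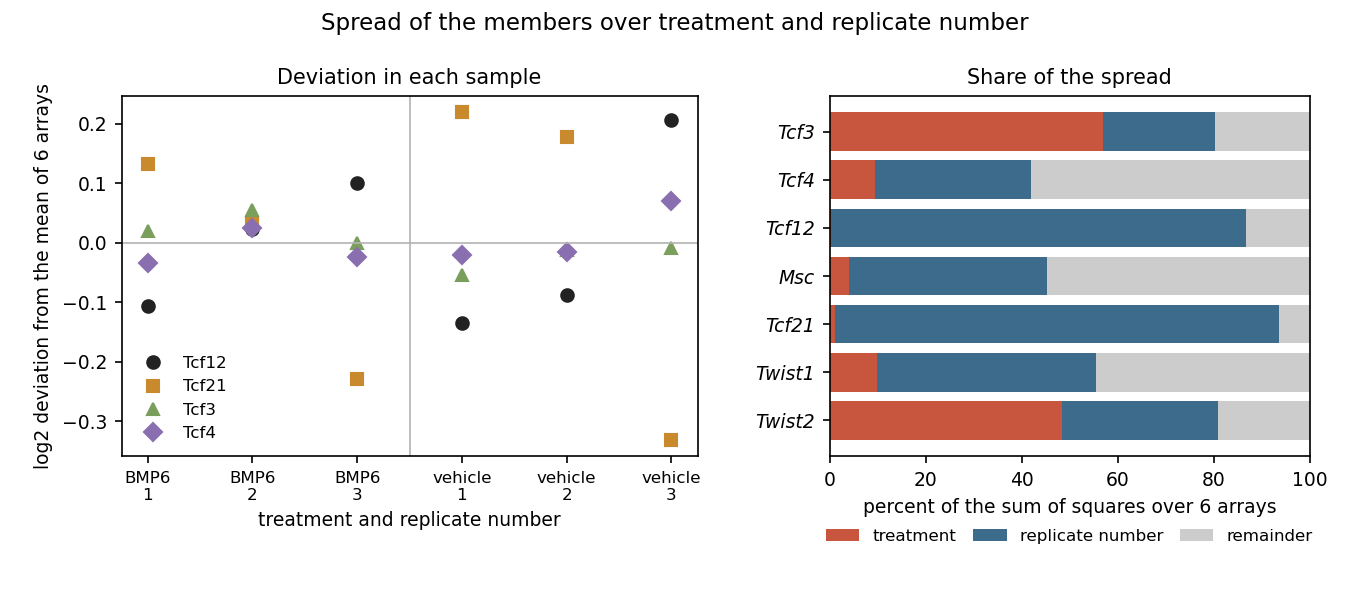
Left, log2 deviation of Tcf12, Tcf21, Tcf3 and Tcf4 from their mean over 6 arrays, by treatment and replicate number. Right, percent of the sum of squares that goes with treatment, replicate number and the remainder for each of the 7 genes, where replicate number takes 86.6% for Tcf12 and 92.6% for Tcf21.

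The gene whose values over the 6 arrays were most like those of each member was found by Pearson's r among 20162 others. It was Otog for Tcf3 (r = 0.988), Capza2 for Tcf4 (0.988), Atg4c for Tcf12 (0.998), Mrpl9 for Msc (0.998), Garin1b for Tcf21 (0.997), Scd1 for Twist1 (0.988) and Ppp2r2c for Twist2 (0.995). Each is the best of many genes over 6 arrays and is given as a description.

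Other factors that dimerise with E proteins or oppose MyoD held a few calls. Of 13 other repressors of myogenic bHLH factors, 2 rose in limma and 0 fell, where 0.0843% of all genes were called. The 2 were the Hairy-type repressor Hes1 and the zinc-finger repressor Snai1. Hes1 stood at 9.28, 9.04 and 8.85 in BMP6, against 7.46, 7.28 and 7.16 in vehicle (limma adjusted p = 0.000255). Snai1, which occupies E-boxes, stood at 8.84, 8.67 and 8.44 in BMP6, against 7.48, 7.08 and 7.60 in vehicle (limma adjusted p = 0.0115). Bhlhe41, a circadian bHLH repressor, had a log2 fold change of 0.62 (SE 0.09). It did not pass (limma adjusted p = 0.0703), and it did once replicate number was a block (limma adjusted p = 0.0209). The median of the 13 was 0.04.

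Of 38 other class II bHLH genes, whose products pair with E proteins, 1 rose in limma and 0 fell, beside the same 0.0843% of all genes, and the median log2 fold change was -0.04. The riser was Atoh8, at 9.03, 8.82 and 8.82 in BMP6, against 8.04, 7.93 and 8.20 in vehicle (limma adjusted p = 0.0128). Scx, the tendon factor scleraxis, was measured at 0.29 (SE 0.09) and Neurog1, a neuronal factor, at -0.21 (SE 0.09), both with a limma adjusted p of 1. Only 10 of the 38 were brighter than the median of all genes. Of 17 cofactors of E proteins and MyoD 0 passed in limma, where 0.0843% of all genes did. Before adjustment 0 reached 0.05, where 3.17% of all genes did. The median of the 17 was 0.013. The lowest p values among them belonged to the LIM adaptor Lmo4 at -0.10 (SE 0.09), and to the ETO-family corepressors Runx1t1 at -0.10 (SE 0.10) and Cbfa2t3 at 0.12 (SE 0.12).

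Tcf21 and the Twist genes are also used by connective tissue and other cells of muscle. In bulk RNA, fewer cells of a type and less RNA per cell cannot be told apart. Of 11 muscle stem cell markers, 10 were brighter than the median of all genes. Pax7, the factor that defines these cells, named for that role after its values were seen, stood at 8.94, 8.94 and 8.84 in BMP6 and at 8.75, 8.86 and 8.82 in vehicle. Megf10, a receptor of these cells, was measured at a log2 difference of 0.21 (SE 0.10) and did not pass. Of 11 fibro-adipogenic markers 0 passed, and 3 had an unadjusted limma p under 0.05, all lower in BMP6, where 1.77% of all genes were. They were Clec3b (log2 fold change -0.25, SE 0.09), Osr1 (-0.29, SE 0.13) and Smoc2 (-0.16, SE 0.07). In all 8 of the 11 were measured lower and 3 higher, with a median of -0.13, and the 3 were Dpt (0.15, SE 0.10), Pi16 (0.12, SE 0.09) and Gsn (0.05, SE 0.09). The mean log2 value of the 11 was 6.15 to 6.33 in the BMP6 samples, against 6.36 to 6.37 in the vehicle samples. The defining markers Pdgfra and Dcn averaged 6.13 and 6.59, and Lum averaged 3.42, among the chemosensory receptors. These markers and the 3 higher ones were also named after their values were seen. The 4 repressive partners were measured below vehicle, as were 10214 of 20163 genes, by amounts that did not pass. For Msc, Tcf21 and Twist1 the sign changed in some refits. The part of these cells in the values of the 4 was not tested.

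Markers of the other cell types held 0 calls, where 0.0843% of all genes were called. An unadjusted limma p under 0.05 was reached by 3.17% of all genes. Of 10 pericyte and smooth muscle markers 1 had an unadjusted limma p under 0.05, Cspg4 (log2 fold change 0.18, SE 0.08), and Pdgfrb and Notch3 were measured at -0.18 (SE 0.10) and -0.12 (SE 0.10). Of 10 immune markers 1 did, Cd3e (-0.17, SE 0.08), with Cd79a at -0.22 (SE 0.12) and Lyz2 at -0.15 (SE 0.11). Of 10 endothelial and 8 Schwann cell markers 0 did. Pecam1, Tek and Emcn were measured at -0.15, 0.15 and -0.10, and Foxd3, Mag and Ngfr at -0.16, -0.15 and 0.12. The endothelial markers all lay below the median brightness of all genes, and 2 of the 10 immune markers lay above it. Cd79a and Emcn averaged 3.47 and 3.87, and only 56.5% and 72% of the chemosensory receptors were dimmer.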

How the data were processed

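Total RNA of 3 BMP6 and 3 vehicle cultures was labelled and hybridised, 1 array per culture. The deposited values were log2 expression per probe set, which the authors made by RMA using oligo, as the submitters' processing notes record. The sources used here give no versions, array type, genome build or annotation source. RMA gives the probe intensities of all arrays 1 distribution before it summarises them, so a shift shared by most genes would not be seen. The values per probe set need not share 1 distribution exactly. Arrays carry no read depth, and their number limits the precision. Array medians over 34760 probe sets lay between 6.02 and 6.10, and the tables, with and without symbols, differed by at most 5e-09.

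Of the probe sets, 21893 had a gene symbol. For each gene the probe set with the highest mean over 6 arrays was kept (20163 genes), with no filter on dim ones. The treatments were compared using lmFit and eBayes of limma 3.58.1 (R 4.3.3), two-sided, without a covariate. P-values were adjusted by Benjamini-Hochberg over all genes and called under 0.05. The procedure was tested on simulated data. SEs and 95% intervals are moderated. Single differences within arrays used exact permutation tests. The alternatives were blocks, samples left out, other probe set rules, a brightness filter, another prior and other scalings.

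Deviations from group means of samples with the same number correlated at 0.315, 0.0475 and 0.434 for numbers 1, 2 and 3. Between different numbers the correlation ran from -0.439 (BMP6 1 with vehicle 3) to 0.179 (BMP6 1 with vehicle 2). The latter was above that of number 2. Vehicle 3 correlated at 0.0197 with BMP6 2. The labels give the pairs 1 and 2 a mouse each, and the third pair rests on a header code that the vehicle source name contradicts. If that sample came from mouse 2, the vehicle group held 2 mice.

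Named genes were the members, the myogenic bHLH and Id genes, the 3 genes of every other list with the lowest p, and 1 most alike gene per member. Genes named outside this rule are marked where they appear. The members, lists and rule were chosen with earlier results of these data known. Sequences came from RefSeq, GRCm38.p6, and motifs were searched on both strands of the 250 bases before each start.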

Additional observations from a re-analysis of the deposited data

How the results depend on the processing

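Over 115 refits of the 7 genes, none was called and none had an unadjusted limma p under 0.05. Tcf3 stayed above vehicle and Twist2 below it in all of theirs. Blocks on replicate number, the other probe set rules and the other prior left each estimate unchanged, so the sign could not change there. For Tcf4, Tcf12, Msc, Tcf21 and Twist1 the sign changed in some refits. Without the third pair Tcf4 stood at 0.013. Blocking on the mouse number in the source names, Tcf12 stood at -0.0085, Tcf21 at 0.026 and Twist1 at 0.016, and with quantile normalization over the genes tested Tcf12 stood at -0.0027. The cause was not tested. Leaving out 1 sample at a time gave log2 fold changes of 0.035 to 0.063 for Tcf3, -0.041 to 0.0069 for Tcf4, -0.053 to 0.12 for Tcf12 and -0.078 to 0.0076 for Msc. It gave -0.22 to 0.061 for Tcf21, -0.14 to 0.011 for Twist1 and -0.15 to -0.067 for Twist2. The replicate block changed no call among the 7. The dim repressive partners had no value under the brightness filter.

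The count of called genes, 17, was 29 with the replicate block, 32 with replicate number as a random block, and 30 among genes brighter than the median. It was 27 with an intensity trend and robust prior, 26 with arrays centred on their median, and 3 with all probe sets tested singly. Leaving out 1 sample gave 7 to 15. Among these were 10 without BMP6 replicate 1 and 7 without BMP6 replicate 2. Dropping vehicle replicate 1 gave 9, as did dropping vehicle replicate 2. Leaving out 1 sample also unbalances the replicate numbers. Id1 minus a member kept its sign throughout. The rise of Id1 was far larger than any change of a member, so the sign could hardly turn and is no separate support. Within replicate numbers the sign-flip permutation gave p = 0.25, the smallest that 3 pairs allow.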
